A study of Rattus norvegicus with 8 samples.

Results

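AmeloD-overexpressing SF2 cells were compared with Control SF2 cells in the libraries that carried the label N, that is, without the label TGF. The comparison used 4 of the series' 8 libraries, 2 of AmeloD and 2 of Control, matched by plasmid label: in each genotype 1 library carried pCMV6 and the other pCMV6.ODAM. SF2 is a rat dental epithelial line from the cervical loop of the mandibular incisor, the growing end of the tooth. AmeloD, the product of Ascl5, is a dental epithelial transcription factor with a basic helix-loop-helix domain, and pCMV6 is an expression plasmid. Odam encodes odontogenic ameloblast-associated protein. The labels spell out neither N nor TGF, and name no promoter for the AmeloD construct, no clone and no culture date. Each combination of genotype, plasmid and condition had 1 library. The 2 libraries of a genotype thus differed in plasmid and were not replicates in the strict sense, and nothing in the labels says that libraries came from separate cultures. Of 30240 rows in the table, the 6986 genes with at least 1 CPM (the usual read count scaled to library size) in at least 2 of the 4 libraries were compared.

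Dental epithelium is a stratified epithelium whose cells divide in the cervical loop, exit the cycle and differentiate into enamel-secreting ameloblasts and the supporting layers of the enamel organ. Basic helix-loop-helix factors bind short DNA sites called E-boxes, usually as dimers with broadly expressed partners, and their activity is held back by Id proteins. In other stratified epithelia, such as skin and oral mucosa, the cells that leave the basal layer switch keratins, strengthen desmosomes and crosslink small proline-rich proteins, late envelope proteins and loricrin into a cornified envelope.

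The 4 libraries totalled 10568146 and 13484330 reads in AmeloD and 15977656 and 14766931 reads in Control (pCMV6 first), of which 15.6% to 16.7% fell on rows of the gene table. The AmeloD libraries were the shallower. Log2 levels correlated at 0.976 between the AmeloD libraries, 0.981 between the Control libraries and 0.951 to 0.959 across genotypes, over 6986 genes that are not independent. The labelled factor itself could not be read: Ascl5 (chromosome 13, 47492026 to 47492592 in the build mRatBN7.2) had 0 reads in all 4 libraries, which allows up to 0.188 to 0.284 CPM. Libraries of 3′ ends miss a construct without the native end of the gene, so this checks nothing. Odam had 0 reads in the AmeloD pCMV6 library, 1 in AmeloD pCMV6.ODAM, 1 in Control pCMV6 and 10 in Control pCMV6.ODAM. Among markers of dental epithelium, Krt17, Krt5, Cdh1, Epcam and Tp63 were at tested levels in both genotypes, and Krt14 was not analysed here. In bulk RNA, more cells of a kind and more RNA per cell cannot be told apart.

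In the comparison as a whole, 807 of 6986 genes (11.6%) passed the test. In AmeloD 523 of them (7.49% of tested genes) were higher and 284 (4.07%) lower. Differences are given on the log2(CPM + 1) scale, AmeloD minus Control ± standard error, which understates the change of genes of low level. The threshold was an adjusted p of 0.05 from limma with Benjamini-Hochberg adjustment over all 6986 genes. Of the calls, 159 rises and 52 falls exceeded 1 log2 unit, and 15 rises and 6 falls exceeded 2. Rises past 3 units were those of Nts, Fhl1 and Slpi, and falls past 3 units those of Prl8a7, Gsta5, Ocm and LOC679539, the last 3 being named after their values were seen. Over all tested genes the median difference was 0.06, and in 3476 genes (49.8%) the AmeloD and Control values did not overlap. Among the called genes 803 did not overlap. The exceptions were Evpl, Chac1, Stmn1 and Gsta4, and in Gsta4 and Chac1 the plasmid pairs went opposite ways. A lack of overlap stated below for a called gene thus adds little to its call. The model had 1 residual degree of freedom, and the spread it used was that of all genes of like level. A gene's own spread between libraries thus did not enter its p or the standard error printed after ±. Gsta4, for example, had -0.52 in the pCMV6 pair and 4.25 in the pCMV6.ODAM pair, with a standard error of 0.20. An exact permutation test of 2 libraries against 2 cannot go below p = 0.333.

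The balance of rises and falls depended on the scaling. Rises were 64.8% of the calls with the deposited CPM, 52.5% with TMM scaling (416 higher, 377 lower) and 52.7% with edgeR on the recovered reads (413 higher, 370 lower). DESeq2 on the same reads called 101 genes higher and 58 lower, and all 159 were among the limma calls in the same direction. Without a plasmid term 395 genes were higher and 200 lower.

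**Figure D1:**
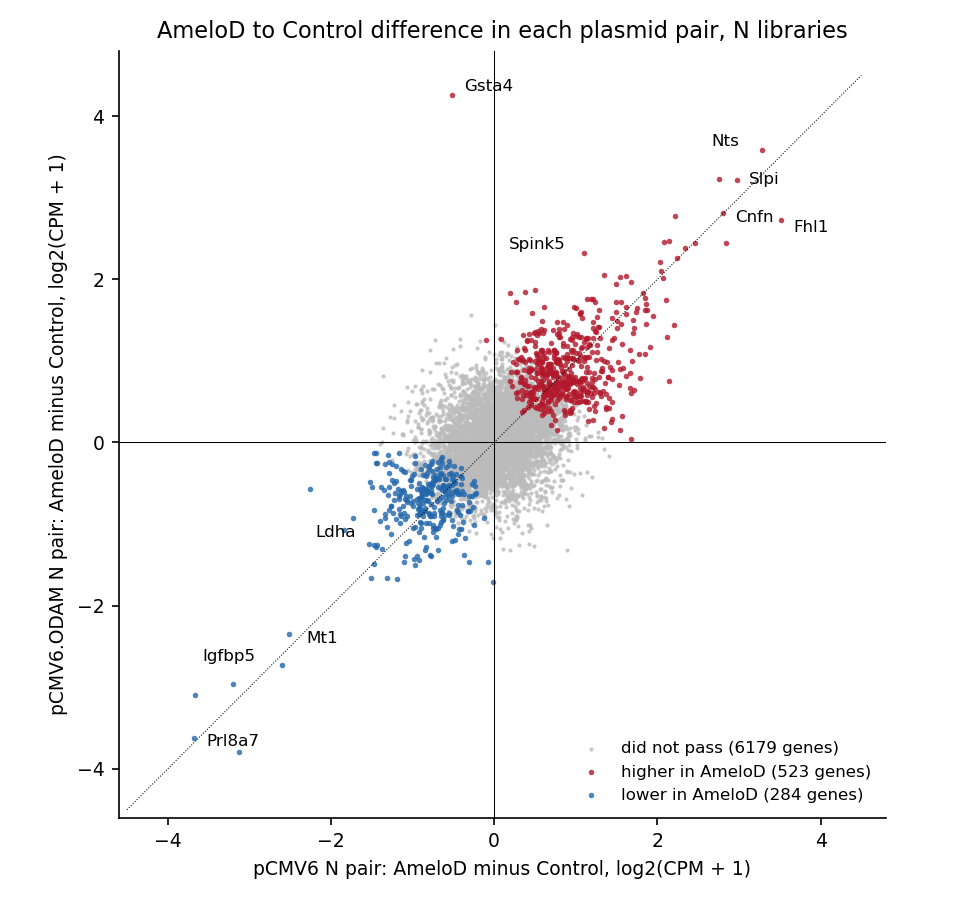
Difference between AmeloD and Control in log2(CPM + 1) in the pCMV6 pair (x axis) and in the pCMV6.ODAM pair (y axis) of N libraries, 1 point per tested gene, with 523 genes higher in AmeloD in red, 284 lower in blue and the others in grey; the dotted line marks equal differences. Most called genes lie along the line, while Gsta4 differs in the pCMV6.ODAM pair alone.

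Genes of the cornified envelope and of keratinocyte differentiation made up the list with the largest share of rises among lists with at least 5 tested members. The lists here and below were chosen with earlier results of these data known. Their shares, and the ranking of lists by share, thus describe the values and are not a test. Of 20 tested members of 32 listed, 16 were higher in AmeloD, 0 were lower and 4 did not pass, against 7.49% higher over all tested genes. The median difference of the 20 was 1.23, beside 0.06 over all tested genes, and their summed level was 999 and 1084 CPM in AmeloD and 274 and 279 CPM in Control. Cnfn encodes cornifelin, a component of the envelope (Cnfn, ENSRNOG00000020530, chromosome 1, 80951600 to 80953747). It was at 421 and 450.5 CPM in AmeloD and 59.6 and 63.5 CPM in Control. Both AmeloD libraries lay far above both Control libraries, and the difference was 2.80 ± 0.13, adjusted p = 6.68e-94.

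Krtdap, which encodes a secreted peptide of differentiating keratinocytes, was at 102 and 119.9 CPM in AmeloD and 17.8 and 21.2 CPM in Control (2.45 ± 0.15, adjusted p = 1.91e-57). The small proline-rich protein gene Sprr1a, an envelope precursor, was at 109 and 98.8 CPM in AmeloD and 22.2 and 19.8 CPM in Control (2.25 ± 0.15, adjusted p = 7.88e-49). The late cornified envelope gene Lce3d was at 154 and 204 CPM in AmeloD and 52 and 49.1 CPM in Control (1.79 ± 0.14, adjusted p = 5.82e-36). In these 3 genes the genotypes were far apart. The libraries of a genotype lay close together in Krtdap and Sprr1a, while the AmeloD libraries of Lce3d lay further apart. Further precursors stood at lower levels: Sprr3 at 4.16 and 3.56 against 0.438 and 0.474 CPM (1.74 ± 0.27), loricrin at 4.07 and 4.23 against 1.31 and 1.15 CPM (1.21 ± 0.26) and Sprr1b at 2.37 and 2.74 against 0.939 and 1.29 CPM (0.75 ± 0.27).

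Tgm1 encodes transglutaminase 1, the membrane-bound enzyme that crosslinks envelope precursors. Its level was 16.6 and 16.9 CPM in AmeloD and 6.26 and 4.81 CPM in Control (1.45 ± 0.20, adjusted p = 1.7e-11). Periplakin and envoplakin, encoded by Ppl and Evpl, form the scaffold beneath the membrane on which the envelope is built. Ppl was at 19.4 and 12.8 CPM in AmeloD and 6.13 and 5.96 CPM in Control (1.25 ± 0.19, adjusted p = 1.35e-08). Evpl was at 12.1 and 8.75 CPM in AmeloD and 9.2 and 4.27 CPM in Control, so that its highest Control library overlapped the AmeloD values (0.63 ± 0.20, adjusted p = 0.024). Corneodesmosin, the adhesive protein of cornified desmosomes encoded by Cdsn, was at 5.39 and 5.64 against 0.751 and 1.15 CPM (1.75 ± 0.26). Suprabasin, encoded by Sbsn, was at 11.4 and 10.6 against 2.82 and 3.12 CPM (1.60 ± 0.22), and dermokine, encoded by Dmkn from the same gene cluster, was at 3.41 and 4.52 against 0.438 and 0.339 CPM (1.83 ± 0.27).

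The remaining rises of this list were Klk10, a kallikrein-related protease (0.93 ± 0.17), Lypd3 (0.61 ± 0.16) and Ecm1 (0.61 ± 0.19). The genes that did not pass were the cystatins Csta (-0.25 ± 0.18) and Cstb (0.26 ± 0.16), Ly6d (0.29 ± 0.17) and the transcription factor gene Grhl1 (0.06 ± 0.27). DESeq2 called 11 of the 16, TMM scaling 14. With 1 library left out at a time, which also drops the plasmid term and leaves a genotype with a lone library assumed to vary like the rest, 13 or 14 members stayed called. The calls of Ecm1 and Sprr1b then ended in all 4 cases (highest adjusted p = 0.188 and 0.32). Evpl ended without the AmeloD pCMV6 or the Control pCMV6.ODAM library (0.15 log2 units, adjusted p = 0.887, without the latter), and Lypd3 without the Control pCMV6 library (adjusted p = 0.155). Sprr and Lce genes are members of families of similar sequence, and the sources used here do not say how ambiguous reads were assigned.

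**Figure D2:**
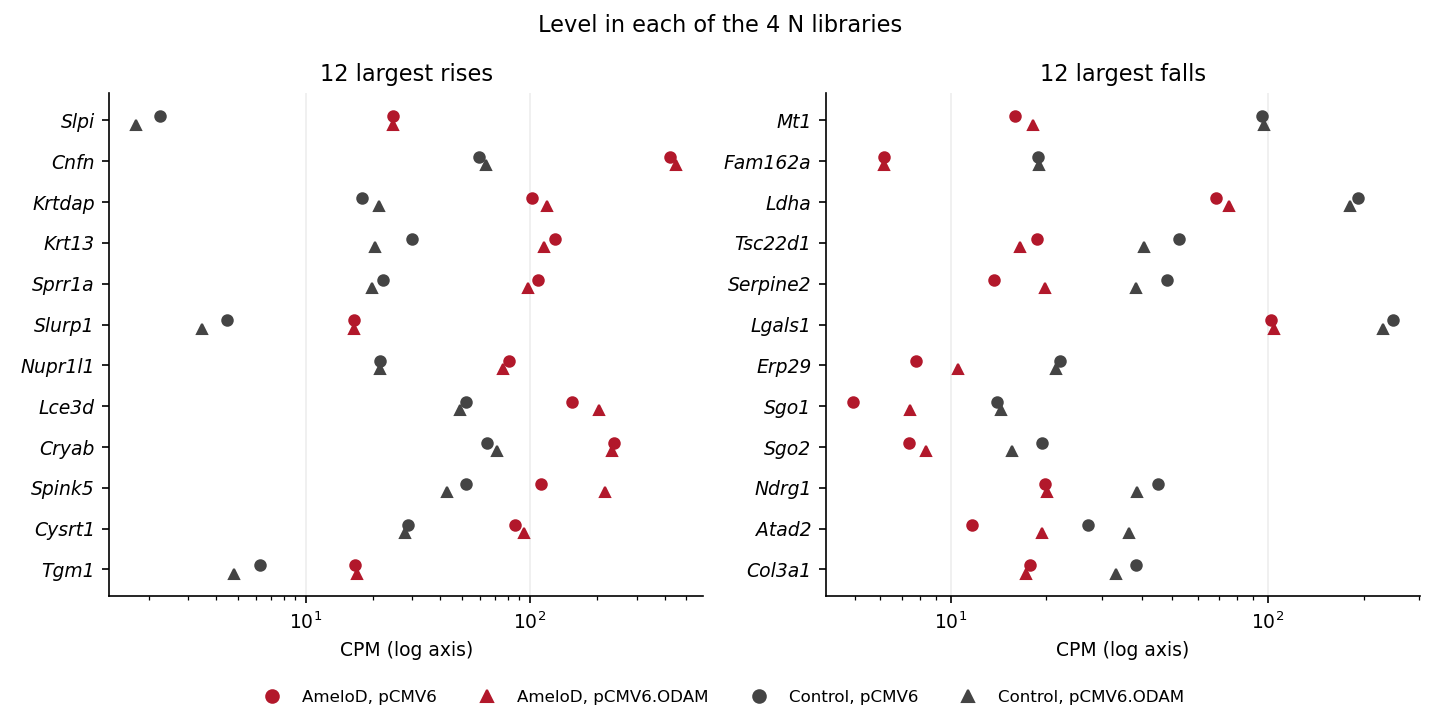
CPM (log axis) in each of the 4 N libraries for the 12 largest rises (left) and the 12 largest falls (right) among called genes averaging 10 CPM or more and with an established symbol whose pairs go the same way; circles are pCMV6 and triangles pCMV6.ODAM, red is AmeloD and grey Control. The values of a genotype lie close together in most genes, and Spink5 has the widest gap between its AmeloD libraries, 113 against 218 CPM.

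Keratins, the intermediate filament proteins whose pairing marks layer and kind of epithelium, moved in both directions. Of 10 tested, 6 were higher, 1 was lower and 3 did not pass (7.49% and 4.07% over all genes), with a median difference of 0.67. Krt13, a keratin of the suprabasal mucosa, was at 129.8 and 116 CPM in AmeloD and 29.8 and 20.3 CPM in Control (2.27 ± 0.14, adjusted p = 8.33e-52; Krt13, ENSRNOG00000014070, chromosome 10, 85051889 to 85056084). The AmeloD libraries exceeded both Control libraries about equally. Krt17, a keratin of basal and stressed epithelium, was at 516 and 546 CPM in AmeloD and 382 and 300.5 CPM in Control (0.65 ± 0.13, adjusted p = 1.83e-05). Krt7, of simple and glandular epithelium, was at 147 and 126 CPM in AmeloD and 91.7 and 75.6 CPM in Control (0.70 ± 0.14, adjusted p = 1.12e-05). Krt8, of simple epithelium, was the member that was lower, at 3.31 and 2.67 CPM in AmeloD and 7.51 and 8.87 CPM in Control (-1.20 ± 0.23, adjusted p = 7.76e-06).

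The low keratins Krt23, Krt80 and Krt6a were also higher, by 1.14 ± 0.27, 1.04 ± 0.27 and 0.77 ± 0.27, and none reached 4 CPM in any library. Krt5 of the basal layer (0.32 ± 0.13), Krt10 of the suprabasal epidermis (0.46 ± 0.27) and Krt16 (0.08 ± 0.13) did not pass. DESeq2 called Krt13 and 2 other rises of this list, and Krt8 as lower. Leaving out the Control pCMV6.ODAM library ended the calls of Krt17 (0.47, adjusted p = 0.194), Krt7 (0.56, adjusted p = 0.0827) and Krt80 (0.84, adjusted p = 0.17). Krt23 ended without the AmeloD pCMV6 library (0.75, adjusted p = 0.182) or the Control pCMV6 library, and Krt6a in 3 of the 4 cases (highest adjusted p = 0.363).

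Cell junction genes were higher or did not pass. Of 16 tested genes of desmosomes and adherens junctions, 6 were higher and 0 lower, with a median of 0.32, and of 7 tested tight junction genes 3 were higher and 0 lower, with a median of 0.64. The shares of rises were 37.5% and 42.9%, against 7.49% over all tested genes. The desmosomal cadherin gene Dsg1, typical of upper epithelial layers, was at 7.67 and 6.6 CPM in AmeloD and 1.0 and 2.1 CPM in Control (1.70 ± 0.25, adjusted p = 1.2e-09). Dsp encodes desmoplakin, which ties desmosomes to keratin filaments. It was at 110.0 and 64.3 CPM in AmeloD and 53.8 and 38.7 CPM in Control (0.87 ± 0.14, adjusted p = 9.22e-08), with the AmeloD pCMV6 library the highest and no overlap. Dsc2, another desmosomal cadherin gene, was at 5.68 and 3.71 against 1.31 and 1.9 CPM (1.11 ± 0.26), and Pkp1, encoding plakophilin 1, at 15.5 and 16.8 against 10.5 and 7.52 CPM (0.79 ± 0.19). The basal cadherin gene Dsg3 (0.25 ± 0.15), Dsc3 (0.02 ± 0.22) and the plakoglobin gene Jup (-0.14 ± 0.26) did not pass.

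The adherens junction cadherin gene Cdh1 was at 9.46 and 5.56 CPM in AmeloD and 3.25 and 3.32 CPM in Control (0.95 ± 0.23, adjusted p = 0.000938), and the epithelial adhesion gene Epcam at 13.6 and 12.2 against 8.57 and 7.38 CPM (0.63 ± 0.19, adjusted p = 0.0146). Among the claudins, which seal the space between epithelial cells, Cldn3 was at 3.12 and 5.93 CPM in AmeloD and 0.626 and 0.677 CPM in Control (1.70 ± 0.27, adjusted p = 2.51e-08). Cldn4 was at 14 and 8.9 against 7.7 and 5.62 CPM (0.68 ± 0.20) and Cldn1 at 8.61 and 5.86 against 4.07 and 4.2 CPM (0.66 ± 0.22). In all 3 claudins both AmeloD libraries lay above both Control libraries, while 803 of the 807 called genes and 49.8% of all tested genes did not overlap. DESeq2 called 2 of the desmosome and adherens genes and 1 claudin. Without the AmeloD pCMV6 library the values were 0.61 for Cdh1 (adjusted p = 0.211), 0.86 for Dsc2 (0.0829), 0.38 for Cldn4 (0.428) and 0.42 for Cldn1 (0.446). Without the Control pCMV6.ODAM library they were 0.57 for Pkp1 (0.205) and 0.54 for Epcam (0.285). Epcam and Cldn1 ended in 3 of the 4 cases and Cldn4 in 2. With TMM scaling Cldn1 did not pass (0.60, adjusted p = 0.0693).

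Protease inhibitors had rises and falls. Of 19 tested, 6 were higher (31.6%) and 2 lower (10.5%), against 7.49% and 4.07% over all tested genes, with a median of 0.39. DESeq2 called 2 higher and 2 lower. Slpi, a secreted inhibitor of neutrophil elastase made by mucosal epithelia, was at 24.5 and 24.6 CPM in AmeloD and 2.25 and 1.76 CPM in Control. The AmeloD values were nearly equal and the Control values low, and the difference was 3.09 ± 0.21, adjusted p = 3.84e-47. Counted in reads, Slpi had 591 in AmeloD and 62 in Control, a ratio scaled to library totals of 12.2 (exact 95% interval 9.37 to 16.1, counting error only). Spink5 encodes LEKTI, the inhibitor of the kallikreins that shed cornified cells. It was at 113 and 218 CPM in AmeloD and 52.2 and 42.7 CPM in Control (1.71 ± 0.14, adjusted p = 3.22e-32), with the AmeloD pCMV6.ODAM library standing above the AmeloD pCMV6 library. DESeq2 did not call Spink5 (adjusted p = 0.134). In TGF libraries its difference was 0.02, adjusted p = 0.986, the mean of pairs that went opposite ways. There Spink5 was at 78.6 and 67.3 CPM in AmeloD and 33 and 155 CPM in Control (pCMV6 first). Timp2, an inhibitor of matrix metalloproteases, was at 19.4 and 18.8 against 7.82 and 6.16 CPM (1.34 ± 0.19).

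The cytosolic serpin genes Serpinb1a and Serpinb2 were higher by 0.65 ± 0.14 and 0.50 ± 0.14, and the Kunitz inhibitor gene Spint2 by 0.58 ± 0.17. Serpine2, encoding protease nexin 1, which inhibits thrombin and plasminogen activators, was lower, at 13.7 and 19.8 CPM in AmeloD and 47.9 and 38.4 CPM in Control (-1.33 ± 0.16, adjusted p = 2.58e-14). Serpinb10 was lower as well, at 16.8 and 16.1 against 31.5 and 30.9 CPM (-0.89 ± 0.16). Timp1, with -0.27 ± 0.26, did not pass. Serpinb2 and Spint2 ended in 3 of the 4 cases with a library left out (highest adjusted p = 0.259 and 0.227), and Serpinb1a without the Control pCMV6 library (0.50, adjusted p = 0.136).

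The 12 largest rises also held genes outside the lists. Cryab, encoding the small heat shock protein αB-crystallin, was at 237 and 234 CPM in AmeloD and 64.6 and 71.4 CPM in Control (1.78 ± 0.13, adjusted p = 3.84e-37; Cryab, ENSRNOG00000010524, chromosome 8, 51093441 to 51099157). It overlaps Hspb2 on the other strand, which stood at 14.7 to 19.6 CPM in the 4 libraries. The sources used here give no strand setting for the counting, so reads of overlapping genes cannot be told apart. Slurp1, a secreted peptide of stratified epithelia, was at 16.5 and 16.4 CPM in AmeloD and 4.44 and 3.45 CPM in Control (1.82 ± 0.20, adjusted p = 7.33e-17). Cysrt1, whose product is a cysteine-rich protein of the epithelial barrier, was at 86.2 and 94.2 CPM in AmeloD and 28.7 and 27.9 CPM in Control (1.64 ± 0.15, adjusted p = 2.48e-26). Nupr1l1, a relative of the stress-induced nuclear protein gene Nupr1, was at 80.6 and 75.6 CPM in AmeloD and 21.6 and 21.4 CPM in Control (1.81 ± 0.15, adjusted p = 1.04e-30). In each of these 4 genes the libraries of a genotype were close to each other and no values overlapped, the latter as in 803 of the 807 called genes. H2aj, a histone H2A variant gene, was among the largest rises in CPM, at 382 and 481 against 307 and 288 CPM (0.52 ± 0.13, adjusted p = 0.00102), and ended without either Control library (0.48, adjusted p = 0.184, without the pCMV6.ODAM one).

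Genes read almost in AmeloD alone were few. Nts, encoding the secreted peptide neurotensin, had 92 and 148 reads in the AmeloD libraries, or 8.71 and 11 CPM in AmeloD and 0 and 0 CPM in Control. The 0 reads in each Control library allow up to 0.203 CPM, which makes Nts at least 42.9-fold higher in AmeloD. With limma Nts was called (3.43 ± 0.27, adjusted p = 4.61e-35), and with DESeq2 on the recovered reads it was not (adjusted p = 0.335). Fhl1, encoding a LIM domain protein of muscle and stressed cells, was at 16.8 and 15.9 CPM in AmeloD and 0.563 and 1.56 CPM in Control (3.12 ± 0.23, adjusted p = 2.85e-38), on 393 reads in AmeloD and 32 in Control. Mal, a lipid raft protein gene of apical transport, was at 13.3 and 17.3 CPM in AmeloD and 1.13 and 0.948 CPM in Control (2.99 ± 0.23, adjusted p = 9.98e-35). Galectin-7, encoded by Lgals7 and typical of stratified epithelium, was at 7.95 and 11.5 against 0.25 and 1.29 CPM (2.65 ± 0.25), and Gabrp, a GABA-A receptor subunit gene, at 6.53 and 7.27 against 0.626 and 0.203 CPM (2.50 ± 0.27). The chemokine gene Ccl6 was at 6.25 and 6.75 against 0.751 and 0.813 CPM (2.07 ± 0.26) and the beta-defensin gene Defb52 at 3.69 and 5.64 against 0.0626 and 0.203 CPM (2.30 ± 0.27). Mal, Lgals7, Gabrp, Ccl6 and Defb52 were chosen after their values were seen.

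Since AmeloD belongs to a family that binds E-boxes, the promoter of Nts, the gene read in AmeloD alone among the named ones, is shown with the E-box form CAGCTG in capitals. It runs from 250 bases before to 50 after the gene's start (chr7:39460839-39461138, minus strand, build GRCr8, from RefSeq).
Nts: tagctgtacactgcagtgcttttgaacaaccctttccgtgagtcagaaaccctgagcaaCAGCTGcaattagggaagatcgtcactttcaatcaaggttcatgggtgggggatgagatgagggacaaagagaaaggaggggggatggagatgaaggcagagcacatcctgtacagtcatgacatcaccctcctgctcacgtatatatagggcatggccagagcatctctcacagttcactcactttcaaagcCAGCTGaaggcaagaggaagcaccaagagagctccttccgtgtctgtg
This window holds 2 CAGCTG matches. The palindromic CAGCTG was found in 15.1% of 27457 RefSeq promoters of the same length, and 2 or more matches in 1.68%. A promoter was found for 404 of the 523 higher and 198 of the 284 lower genes, matched by symbol. CAGCTG stood in 19.3% of the promoters of higher genes, 17.7% of lower genes and 14.5% of tested genes that did not pass. The wider form CANNTG, which includes CAGCTG, stood in 67.8%, 67.2% and 59.5%, and in 71.6% of all promoters. A match is a description of the letters, not a bound site.

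**Figure D3:**
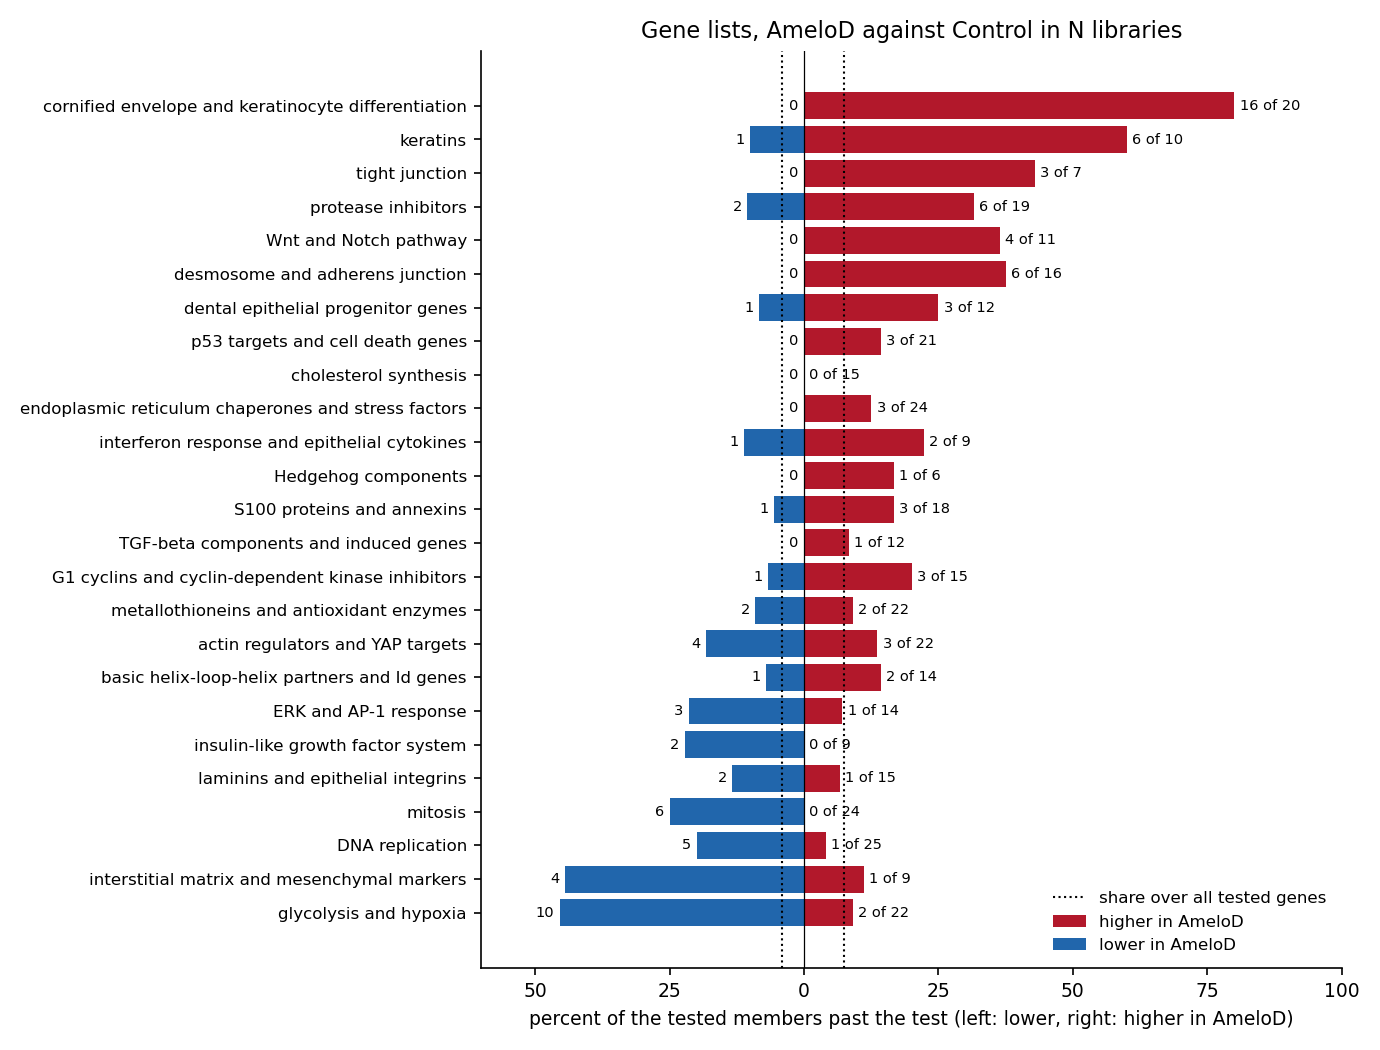
Share of the tested members of each list past the test, higher in AmeloD to the right and lower to the left, for lists with at least 5 tested members, ordered by median difference; numbers give the counts and dotted lines the shares over all tested genes (7.49% higher, 4.07% lower). Cornified envelope genes have the largest share of rises (16 of 20), and glycolysis and hypoxia genes the largest share of falls (10 of 22).

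Genes of glycolysis and of the hypoxia response made up the list with the largest share of falls among lists with at least 5 tested members. Of 22 tested, 10 were lower, 2 higher and 10 did not pass (4.07% lower over all genes), with a median of -0.54. Ldha, encoding lactate dehydrogenase A, which turns pyruvate into lactate, was at 68.6 and 75.6 CPM in AmeloD and 192 and 182 CPM in Control (-1.36 ± 0.13, adjusted p = 1.79e-21; Ldha, ENSRNOG00000013009, chromosome 1, 97366021 to 97433472). Its gene model in the table overlaps Tsg101, which stood at 5.01 to 7.19 CPM. Slc2a1, the glucose transporter gene GLUT1, was at 0.662 and 1.26 CPM in AmeloD and 2.82 and 3.32 CPM in Control (-1.07 ± 0.27, adjusted p = 0.00163). In the order of the pathway, the enzymes Gpi (-0.61 ± 0.17), Tpi1 (-0.86 ± 0.19), Pgk1 (-0.70 ± 0.14) and Pkm (-0.63 ± 0.15) were lower too. Their levels were 13.8 and 13.3 against 21 and 21.5 CPM for Gpi, 7.76 and 8.9 against 15.5 and 16.2 CPM for Tpi1, 52.6 and 54.6 against 90.2 and 84.8 CPM for Pgk1 and 36.7 and 39.2 against 62.1 and 56.3 CPM for Pkm. None of these 4 enzymes overlapped between genotypes, as was so for 803 of the 807 called genes and 49.8% of all tested genes.

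Hexokinase Hk1 (0.38 ± 0.26), phosphofructokinase Pfkp (0.03 ± 0.27), Pgam1 (-0.23 ± 0.14) and enolase Eno1 (-0.37 ± 0.14) did not pass. Among hypoxia-responsive genes outside the pathway, Fam162a, a mitochondrial protein gene, was at 6.15 and 6.16 CPM in AmeloD and 18.8 and 19 CPM in Control (-1.48 ± 0.19, adjusted p = 1.51e-12). Ndrg1, a stress and differentiation gene, was at 19.9 and 20.2 CPM in AmeloD and 45 and 38.7 CPM in Control (-1.02 ± 0.16, adjusted p = 1.06e-08). The collagen prolyl hydroxylase gene P4ha1 was at 3.79 and 4.75 against 10.7 and 7.38 CPM (-0.92 ± 0.22). In Fam162a and Ndrg1 both Control libraries lay well above both AmeloD libraries. The oxygen-regulated factor gene Hif1a was lower by a smaller amount (-0.57 ± 0.18, adjusted p = 0.0208).

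The rises were Egln3, a prolyl hydroxylase gene of oxygen sensing, at 5.11 and 4.3 against 1.44 and 1.83 CPM (1.11 ± 0.26), and Mxi1, a MYC antagonist, at 5.58 and 4.38 against 2.06 and 2.78 CPM (0.81 ± 0.25). Vegfa, Pdk1 and Kdm3a did not pass, with -0.35 ± 0.20, -0.51 ± 0.23 and -0.46 ± 0.23. DESeq2 called 5 lower and 0 higher, and 6 to 9 stayed lower with a library left out. The calls that then ended were those of Hif1a and Mxi1 in 3 of 4 cases (highest adjusted p = 0.367 and 0.225), Slc2a1 in 2 (0.0898), Gpi without either Control library (0.175), and P4ha1 and Pkm without the Control pCMV6 library (0.177 and 0.104).

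The promoter of Ldha is shown because it is the lower gene of this list with the smallest adjusted p. Capitals mark ACGTG on either strand, the core of the hypoxia response element (chr1:106507842-106508141, plus strand, GRCr8, RefSeq).
Ldha: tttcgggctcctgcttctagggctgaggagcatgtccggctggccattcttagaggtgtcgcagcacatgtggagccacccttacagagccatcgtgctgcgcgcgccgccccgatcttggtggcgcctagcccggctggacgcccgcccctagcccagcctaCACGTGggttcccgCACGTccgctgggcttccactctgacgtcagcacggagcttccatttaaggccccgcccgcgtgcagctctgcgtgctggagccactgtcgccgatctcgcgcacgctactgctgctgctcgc
There are 3 matches, of which 2 are the strands of 1 CACGTG palindrome, which is also an E-box. Of the 10 lower genes of the list 8 had a promoter entry, and 6 of these (75%) held ACGTG. The share was 19.7% of all promoters, 33.8% of the lower genes, 22.8% of the higher genes and 27.9% of tested genes that did not pass. Among the cornified envelope genes that were higher, 2 of 14 held it. The metal response element, defined with the metallothioneins below, also stood in 6 of the 8 promoters of lower genes of this list (75%). Its share was 25% of all promoters and 41.4% of the lower genes. The list members that did not pass were not counted apart, so whether either share goes with the falls was not tested.

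The metallothioneins, small metal-binding proteins that buffer zinc and copper, were lower, while most antioxidant enzymes did not pass. Of 22 tested genes of this list 2 were higher and 2 lower, 9.09% each way beside 7.49% and 4.07% over all tested genes, with a median of 0.10. Mt1 was at 16 and 18.2 CPM in AmeloD and 95.7 and 96.8 CPM in Control (-2.43 ± 0.15, adjusted p = 1.13e-54; Mt1, ENSRNOG00000025764, chromosome 19, 10826032 to 10827049). Among called genes averaging 10 CPM or more over the 4 libraries, with an established symbol, it had the largest fall. Both Control libraries stood far above both AmeloD ones. Mt2A was at 2.84 and 3.49 CPM in AmeloD and 9.45 and 9.89 CPM in Control (-1.36 ± 0.22, adjusted p = 8.31e-08). The pseudogene Mt1-ps3 was lower too (-1.39 ± 0.26), and whether it shares reads with Mt1 is not known from these files.

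The promoters of both metallothionein genes are shown with matches to the metal response element in capitals, taken as TGCACNC or TGCGCNC on either strand. They lie at chr19:10832926-10833225 for Mt1 and chr19:10838659-10838958 for Mt2A, both on the minus strand (GRCr8, RefSeq).
Mt1: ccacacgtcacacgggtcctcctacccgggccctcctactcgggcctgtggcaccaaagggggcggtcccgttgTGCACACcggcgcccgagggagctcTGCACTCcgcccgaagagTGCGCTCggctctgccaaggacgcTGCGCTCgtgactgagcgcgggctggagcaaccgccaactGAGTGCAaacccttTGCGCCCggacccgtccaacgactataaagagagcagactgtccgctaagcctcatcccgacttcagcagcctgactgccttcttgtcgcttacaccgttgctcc
Mt2A: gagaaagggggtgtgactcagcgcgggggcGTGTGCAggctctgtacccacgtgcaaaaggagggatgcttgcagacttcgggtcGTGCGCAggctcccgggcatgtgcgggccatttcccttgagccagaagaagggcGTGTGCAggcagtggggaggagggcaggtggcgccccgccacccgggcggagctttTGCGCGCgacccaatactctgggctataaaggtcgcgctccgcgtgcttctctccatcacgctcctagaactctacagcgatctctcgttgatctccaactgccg
Mt1 held 6 matches and Mt2A 4. At least 1 match stood in 25% of all promoters, and 4 or more in 0.455%. In tested genes the share with at least 1 was 36.9% of the higher, 41.4% of the lower and 37.9% of those that did not pass. The share with 4 or more was 0.743%, 1.52% and 0.943% in the same order.

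Among the glutathione enzymes, Gpx4, which reduces lipid peroxides, was at 71.5 and 70.6 against 50.1 and 52.1 CPM (0.47 ± 0.14), and its call ended in 3 of 4 cases with a library left out (highest adjusted p = 0.223). The glutathione transferase gene Gsta4 was at 2.93 and 106 CPM in AmeloD and 4.63 and 4.61 CPM in Control. Its high value stood in the AmeloD pCMV6.ODAM library alone, and without that library its difference was -0.51 (adjusted p = 0.286), so the call of 1.87 ± 0.20 rests on 1 library. Gsta5 and Gsta2, chosen after their values were seen, were lower in both pairs, Gsta5 at 1.14 and 0.297 CPM in AmeloD and 17.6 and 16.9 CPM in Control (-3.46 ± 0.24, adjusted p = 3.71e-45) and Gsta2 at 2.56 and 1.85 against 7.82 and 8.06 CPM (-1.49 ± 0.24). Gsta genes are close paralogs, and shared reads may be split among them. Hmox1 (-0.58 ± 0.25), Nqo1 (0.35 ± 0.16) and Txnrd1 (0.07 ± 0.27) did not pass.

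**Figure D4:**
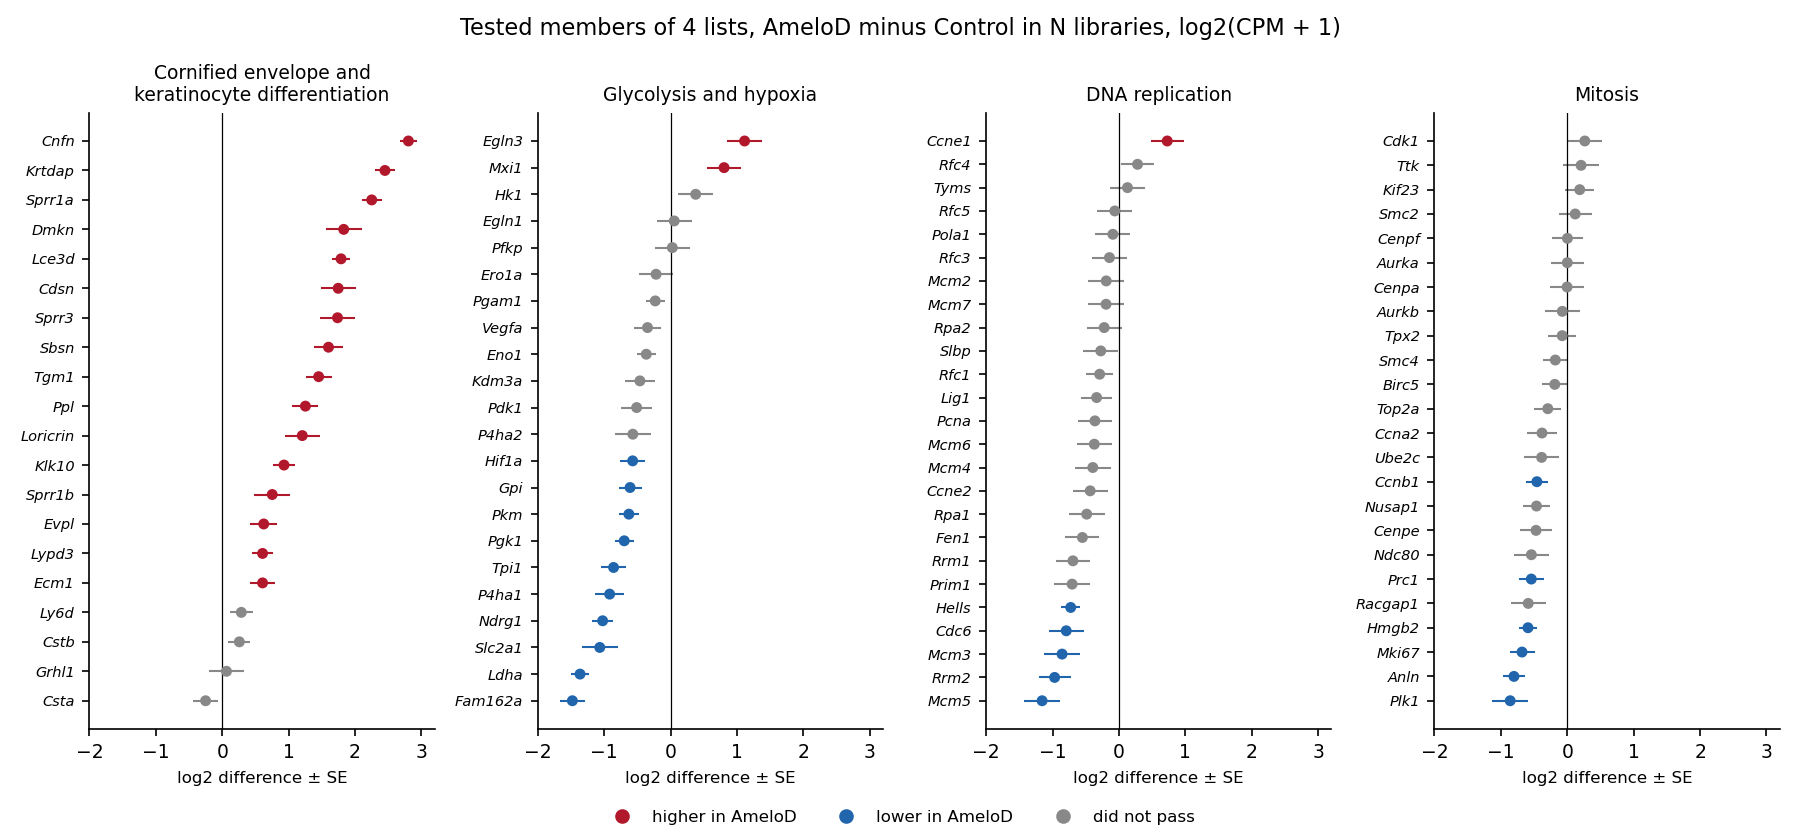
Log2 difference ± standard error, AmeloD minus Control in N libraries, for every tested member of 4 lists; red members were higher, blue ones lower and grey ones did not pass. The cornified envelope members lie mostly above 0 and the glycolysis and hypoxia members mostly below, while most DNA replication and mitosis members lie below 0 without passing.

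The title of the series names proliferation. Of 25 tested DNA replication genes 5 were lower (20%, against 4.07% over all tested genes), 1 was higher (4%, against 7.49%) and 19 did not pass, 22 of the 25 lay below 0 and the median was -0.36. Hells, a chromatin remodeller of dividing cells, was at 36.5 and 47.2 CPM in AmeloD and 65.9 and 73 CPM in Control (-0.73 ± 0.14, adjusted p = 2.52e-05). Rrm2, the regulated subunit of ribonucleotide reductase, was at 1.61 and 3.86 against 5.13 and 6.91 CPM (-0.97 ± 0.24). Mcm5 and Mcm3, subunits of the replicative helicase, were at 0.568 and 1.04 against 2.32 and 3.79 CPM (-1.16 ± 0.27) and 0.568 and 1.26 against 2.38 and 2.44 CPM (-0.86 ± 0.27), and the loading factor gene Cdc6 at 1.7 and 1.33 against 3.19 and 3.52 CPM (-0.79 ± 0.27). Hells kept its call with any library left out. The sliding clamp gene Pcna (-0.36 ± 0.26) and the helicase genes Mcm2, Mcm4, Mcm6 and Mcm7 did not pass. With DESeq2, 1 member was lower and 0 higher. Cdc6 ended in all 4 cases with a library left out, Mcm3 in 3, Rrm2 in 2 (highest adjusted p = 0.271, 0.319 and 0.274) and Mcm5 without the Control pCMV6.ODAM library (0.151).

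Of 24 tested mitosis genes 6 were lower (25%, against 4.07% over all tested genes), 0 higher and 18 did not pass, with a median of -0.34. Anln, a contractile ring protein gene, was at 12.2 and 18.5 CPM in AmeloD and 32.4 and 22.6 CPM in Control (-0.80 ± 0.17, adjusted p = 7.17e-05). Mki67, the gene of the proliferation antigen Ki-67, was at 9.94 and 7.86 CPM in AmeloD and 16.5 and 13.3 CPM in Control (-0.68 ± 0.19, adjusted p = 0.00536). Hmgb2, a chromatin protein gene, was at 47.2 and 70.2 against 78.5 and 97 CPM (-0.59 ± 0.14). The kinase gene Plk1 (-0.86 ± 0.27), the spindle midzone gene Prc1 (-0.54 ± 0.18) and the mitotic cyclin gene Ccnb1 (-0.46 ± 0.16) were lower too. Cdk1 (0.26 ± 0.26), Aurka (0.00 ± 0.25) and Top2a (-0.29 ± 0.20) did not pass. DESeq2 called 1 member, and 1 or 2 stayed called with a library left out. Plk1, Prc1 and Ccnb1 ended in all 4 cases (highest adjusted p = 0.176, 0.324 and 0.439), and Anln, Mki67 and Hmgb2 in 2 (0.169, 0.244 and 0.266).

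Outside the lists, the shugoshins Sgo1 and Sgo2, which protect cohesion of sister chromatids, were among the 12 largest falls. Sgo1 was at 4.92 and 7.42 CPM in AmeloD and 14 and 14.4 CPM in Control (-1.11 ± 0.20, adjusted p = 1.28e-06) and Sgo2 at 7.38 and 8.38 against 19.4 and 15.6 CPM (-1.05 ± 0.19, adjusted p = 1.14e-06). Atad2, a bromodomain protein gene of replicating chromatin, was at 11.6 and 19.4 CPM in AmeloD and 27.1 and 36.6 CPM in Control (-1.02 ± 0.17, adjusted p = 7.87e-08), with the pCMV6.ODAM library the higher in each genotype. All 3 stayed called with any of the 4 libraries left out.

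G1 cyclins carry cells through the first gap of the cycle, and 3 of the 5 tested were higher. Of all 15 tested genes of this list, cell cycle inhibitors included, 3 were higher (20%) and 1 was lower (6.67%), against 7.49% and 4.07% over all tested genes, and DESeq2 called Ccnd2 alone. Ccnd2, encoding cyclin D2, was at 3.97 and 3.86 CPM in AmeloD and 0.188 and 0.203 CPM in Control (2.04 ± 0.27, adjusted p = 4.12e-12), on 94 reads in AmeloD and 6 in Control, a ratio scaled to library totals of 20.03 (exact 95% interval 8.86 to 55.9). Ccnd1, the more abundant, was at 45.8 and 39 CPM in AmeloD and 28.4 and 24.7 CPM in Control (0.66 ± 0.15, adjusted p = 0.000638), and Ccne1, encoding cyclin E1, at 5.01 and 4.3 against 2.25 and 2.57 CPM (0.73 ± 0.25, adjusted p = 0.0364). In these 3 genes neither AmeloD library overlapped Control, as in 803 of the 807 called genes. Cdk4, the kinase partner of D cyclins, was lower at 8.23 and 9.71 against 13.8 and 13.6 CPM (-0.56 ± 0.19, adjusted p = 0.0312) and overlaps Tspan31 and Os9. The cyclin genes Ccnd3 (0.01 ± 0.19) and Ccne2 (-0.43 ± 0.26) did not pass. The inhibitor genes Cdkn1a (0.11 ± 0.15), Cdkn1b (-0.08 ± 0.26), Cdkn2a (0.26 ± 0.25) and Cdkn2b (0.39 ± 0.26) did not pass. Ccnd1 ended without the Control pCMV6.ODAM library (0.56, adjusted p = 0.137), Ccne1 in all 4 cases and Cdk4 in 3 (highest adjusted p = 0.23 and 0.248).

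The title also names Sonic hedgehog signalling, in which a ligand relieves the inhibition of Smo by Ptch1 and so activates the Gli factors. Of 27 listed components 6 were tested. Among these 1 was higher (16.7%, against 7.49% over all tested genes) and 0 lower (4.07% over all), and the median was 0.25. Smo, the transducer, was at 1.8 and 1.93 CPM in AmeloD and 0.25 and 0.271 CPM in Control (1.18 ± 0.26, adjusted p = 0.000193), on 45 reads in AmeloD and 8 in Control, a ratio of 7.19 (exact 95% interval 3.35 to 17.7). The AmeloD values were close to each other and did not overlap Control. DESeq2 did not call it. Sufu (0.17 ± 0.27), Prkaca (0.34 ± 0.24), Prkacb (0.45 ± 0.26), Gsk3b (-0.01 ± 0.24) and Csnk1a1 (0.11 ± 0.19) did not pass. In the N libraries Shh and Gli2 had 0 reads, Gli1 and Gli3 had 5 each and Ptch1 had 15, too few for a test. The ligand was thus not detectable at this depth, and the targets were read below the level for a test.

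Differentiation is named in the title too. Among 20 listed genes of the enamel matrix and of ameloblasts 4 were tested, and 0 passed with limma, edgeR or DESeq2 after adjustment (1 at an unadjusted p under 0.05 with limma). Of all tested genes 11.6% passed with limma. The highest of them was Fam83h, at 7.85 and 10.6 CPM in AmeloD and 8.7 and 5.28 CPM in Control (0.38 ± 0.21, adjusted p = 0.253), with overlapping groups. Tuft1, encoding tuftelin, had 0.68 ± 0.27, adjusted p = 0.0795. Amelx, Ambn, Enam, Amtn, Klk4 and Mmp20, which encode the enamel matrix and its proteases, were at 0 reads throughout. Of 12 tested genes of dental epithelial progenitors 3 were higher (25%) and 1 was lower (8.33%), against 7.49% and 4.07% over all tested genes, and 0 to 4 were higher with a library left out. The ligand gene Wnt7b was at 10.2 and 7.86 CPM in AmeloD and 4.76 and 2.51 CPM in Control (1.15 ± 0.22, adjusted p = 1.13e-05) and the receptor gene Notch1 at 17.8 and 14.2 CPM in AmeloD and 9.01 and 7.65 CPM in Control (0.86 ± 0.19, adjusted p = 0.000181). The member that was lower was Igfbp5, which had the smallest adjusted p of the list (-2.66 ± 0.24, adjusted p = 4.95e-26). Krt17, also a member, was higher (0.65 ± 0.13). DESeq2 called 1 member higher and 1 lower, and called neither Wnt7b (adjusted p = 0.0886) nor Notch1 (adjusted p = 0.191). Tp63 (0.31 ± 0.27) and Isl1 (0.38 ± 0.24), transcription factor genes of this epithelium, did not pass. Without the Control pCMV6.ODAM library Wnt7b had 0.79 (adjusted p = 0.0769) and Notch1 0.75 (adjusted p = 0.0512).

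Of 11 tested Wnt and Notch pathway genes 4 were higher (36.4%, against 7.49% over all tested genes) and 0 lower, with a median of 0.37, and DESeq2 called none of them. Besides Wnt7b and Notch1 these were the ligand genes Wnt4, at 11.6 and 11.3 against 8.26 and 5.55 CPM (0.68 ± 0.20, adjusted p = 0.0104), and Wnt10a, at 10.8 and 12.7 against 8.82 and 6.03 CPM (0.61 ± 0.20, adjusted p = 0.0222). Both ended in 2 of 4 cases with a library left out, each also without the Control pCMV6.ODAM library (adjusted p = 0.468 and 0.556). The Notch ligand genes Jag1 (0.28 ± 0.27) and Jag2 (-0.02 ± 0.24) and the target Hes1 (-0.38 ± 0.18) did not pass.

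Among 14 tested basic helix-loop-helix partners and Id genes 2 were higher (14.3%) and 1 was lower (7.14%), against 7.49% and 4.07% over all tested genes, and DESeq2 called none. Mxd1, a MAX partner that opposes MYC, was at 6.53 and 4.6 CPM in AmeloD and 1.19 and 2.23 CPM in Control (1.29 ± 0.25, adjusted p = 1.99e-05). Id4, an inhibitor of helix-loop-helix factors, was at 0.0946 and 0.371 against 1.0 and 1.02 CPM (-0.71 ± 0.25, adjusted p = 0.0431), and its call ended in all 4 cases with a library left out (highest adjusted p = 0.393). The general partners Tcf3 (0.21 ± 0.26) and Tcf12 (-0.48 ± 0.27), and Id1 (0.13 ± 0.24), Id3 (-0.08 ± 0.23) and Myc (0.06 ± 0.27), did not pass.

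Matrix genes of mesenchyme were lower in part. Of 9 tested, 4 were lower (44.4%) and 1 was higher (11.1%), against 4.07% and 7.49% over all tested genes, with a median of -0.42. The fibrillar collagen gene Col3a1 was at 17.8 and 17.3 CPM in AmeloD and 38.3 and 33.2 CPM in Control (-0.98 ± 0.16, adjusted p = 1.01e-07). The fibronectin gene Fn1 was at 20 and 14.8 CPM in AmeloD and 35.5 and 30.3 CPM in Control (-0.89 ± 0.16, adjusted p = 2.62e-06). Both Control libraries exceeded both AmeloD libraries in these genes, and 803 of the 807 called genes did not overlap either. Col5a2 (-0.84 ± 0.22) and Col6a2 (-0.77 ± 0.26) were lower too, and Sparc, a collagen-binding matricellular protein gene, was higher at 36 and 30.3 against 22.8 and 18.6 CPM (0.66 ± 0.16, adjusted p = 0.00112). Vim, the mesenchymal intermediate filament gene, had 0.05 ± 0.26 and did not pass. DESeq2 called 2 lower and 0 higher. Col6a2 ended in all 4 cases with a library left out (highest adjusted p = 0.254), and Col5a2 and Sparc in 2 (0.186 and 0.209).

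Of 15 tested laminins and epithelial integrins, the receptors and ligands of the basement membrane, 1 was higher (6.67%) and 2 were lower (13.3%), against 7.49% and 4.07% over all tested genes, and DESeq2 called none. Itga3 was at 13.6 and 15.1 against 7.13 and 8.87 CPM (0.77 ± 0.19, adjusted p = 0.00125), Itgb1 at 123 and 103 against 145 and 149 CPM (-0.38 ± 0.13, adjusted p = 0.0406) and the cytolinker gene Plec at 7.0 and 5.49 against 9.7 and 11 CPM (-0.66 ± 0.20, adjusted p = 0.0165). The laminin genes Lama3 (-0.30 ± 0.24) and Lamb3 (-0.20 ± 0.16) did not pass. Itgb1 and Plec ended in 3 of 4 cases with a library left out (highest adjusted p = 0.398 and 0.3), and Itga3 without the Control pCMV6 library (0.122). Lgals1, encoding galectin-1, which binds matrix and cell surface glycans, was among the largest falls, at 102 and 105 CPM in AmeloD and 247 and 229.6 CPM in Control (-1.19 ± 0.13, adjusted p = 3.88e-17).

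Of 22 tested actin regulators and YAP targets 3 were higher (13.6%) and 4 lower (18.2%), against 7.49% and 4.07% over all tested genes, and DESeq2 called 2 higher and 1 lower. Besides Fhl1, the tropomyosin gene Tpm1 was higher, at 116 and 69.6 CPM in AmeloD and 39.2 and 36.8 CPM in Control (1.22 ± 0.14, adjusted p = 4.37e-15), with the AmeloD pCMV6 library the highest, and the crosslinker gene Actn4 by 0.59 ± 0.14. Another tropomyosin gene, Tpm3, was lower, at 17.3 and 22.9 against 29.2 and 30.5 CPM (-0.56 ± 0.16). The actin monomer binder gene Pfn1 was lower at 4.92 and 5.71 against 9.58 and 15.3 CPM (-1.06 ± 0.20, adjusted p = 1.05e-05), with several overlapping gene models, as were the severing factor gene Cfl1 (-0.54 ± 0.16) and the myosin light chain gene Myl12b (-0.52 ± 0.15). Ccn2, a matricellular target of YAP and TGF-beta, was at 7.67 and 4.45 CPM in AmeloD and 1.31 and 1.42 CPM in Control (1.54 ± 0.26, adjusted p = 1.56e-07). It was the 1 gene higher of 12 tested TGF-beta components and induced genes (8.33%, near the 7.49% over all tested genes), of which 0 were lower. Without the Control pCMV6.ODAM library Actn4 had 0.37 (adjusted p = 0.392) and Pfn1 -0.75 (adjusted p = 0.129), and Tpm3 and Cfl1 ended in 3 cases and Myl12b in 2 (highest adjusted p = 0.24, 0.267 and 0.191).

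Of 14 tested early response genes downstream of ERK, 3 were lower (21.4%) and 1 was higher (7.14%), against 4.07% and 7.49% over all tested genes, and DESeq2 called none. Fosl1, a FOS family factor gene, was at 0.852 and 0.816 CPM in AmeloD and 3.69 and 2.44 CPM in Control (-1.13 ± 0.27, adjusted p = 0.000691), and Egr1 at 0.946 and 1.48 against 3.94 and 2.71 CPM (-0.96 ± 0.27, adjusted p = 0.00569). Etv1 was lower by a similar margin (-0.75 ± 0.27, adjusted p = 0.047), and Jund was higher, at 40.6 and 37.4 against 23.9 and 30.8 CPM (0.51 ± 0.16, adjusted p = 0.0143). With TMM scaling Jund had 0.43 (adjusted p = 0.0501). Fosl1 ended without the Control pCMV6 library (adjusted p = 0.114), Egr1 and Jund in 2 cases (highest adjusted p = 0.213 and 0.443) and Etv1 in 4 (0.52). Fos (0.11 ± 0.26), Jun (-0.38 ± 0.19) and Junb (-0.07 ± 0.25) did not pass.

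Endoplasmic reticulum chaperones had 3 rises and 0 falls among 24 tested, a share of 12.5% against 7.49% over all tested genes, and 3 or 4 were higher with a library left out. Hspa5, encoding BiP, was at 136 and 83.4 CPM in AmeloD and 58.7 and 56.2 CPM in Control (0.88 ± 0.14, adjusted p = 2.58e-08). Hsp90b1, encoding GRP94, was at 41.6 and 27.1 CPM in AmeloD and 16.3 and 17.9 CPM in Control (0.94 ± 0.16, adjusted p = 6.18e-07), and the BiP cofactor gene Sdf2l1 at 32.2 and 25.9 CPM in AmeloD and 13.3 and 15.8 CPM in Control (0.94 ± 0.17, adjusted p = 1.18e-06). In all 3 the AmeloD pCMV6 library was the highest and no values overlapped, the latter as in 803 of the 807 called genes. The stress factor genes Atf4 (-0.02 ± 0.19), Ddit3 (-0.15 ± 0.20) and Xbp1 (0.35 ± 0.27) did not pass. Erp29, a chaperone gene outside the list and among the 12 largest falls, went the other way, at 7.76 and 10.5 CPM in AmeloD and 22 and 21.5 CPM in Control (-1.18 ± 0.18, adjusted p = 6.87e-09).

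Of 18 tested S100 proteins and annexins, calcium-binding proteins of epithelia, 3 were higher (16.7%) and 1 was lower (5.56%), against 7.49% and 4.07% over all tested genes. DESeq2 called 2 higher and 0 lower, and did not call S100a10 (adjusted p = 0.0617). Anxa1, an anti-inflammatory annexin gene, was at 159.8 and 125 CPM in AmeloD and 58.3 and 51.9 CPM in Control (1.35 ± 0.14, adjusted p = 4.51e-20), S100a10, the partner of annexin 2, at 53.1 and 42 against 25.9 and 28 CPM (0.79 ± 0.15, adjusted p = 1.28e-05) and S100a1 at 3.12 and 4.23 against 0.814 and 0.542 CPM (1.47 ± 0.27, adjusted p = 2.34e-06). Anxa8 was lower, at 35 and 37.9 against 58.6 and 51.6 CPM (-0.58 ± 0.15, adjusted p = 0.00195), and ended without the Control pCMV6 library (-0.49, adjusted p = 0.177). S100a8 (0.25 ± 0.27) and S100a9 (0.17 ± 0.27), the calprotectin subunits, did not pass.

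In the insulin-like growth factor system 2 of 9 tested genes were lower (22.2%, against 4.07% over all tested genes) and 0 higher, and DESeq2 called 1. Igfbp5, encoding a secreted binding protein of the growth factor, was at 0.852 and 1.33 CPM in AmeloD and 10.3 and 14.4 CPM in Control (-2.66 ± 0.24, adjusted p = 4.95e-26; Igfbp5, ENSRNOG00000017206, chromosome 9, 74448382 to 74465156), on 27 reads in AmeloD and 377 in Control. Both Control libraries stood far above both AmeloD libraries. Igfbp3, the most abundant member, was lower by less, at 216 and 169 against 252 and 260.0 CPM (-0.42 ± 0.13, adjusted p = 0.0151), and ended in 3 of 4 cases with a library left out (highest adjusted p = 0.312). Igf1r (0.37 ± 0.27) and Igfbp2 (-0.15 ± 0.26) did not pass.

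Of 21 tested p53 targets and cell death genes 3 were higher (14.3%, against 7.49% over all tested genes) and 0 lower, and DESeq2 called none. These were the survival genes Mcl1, at 15.9 and 11.9 against 8.26 and 7.25 CPM (0.76 ± 0.19, adjusted p = 0.00185), and Bcl2l1, at 2.37 and 4.15 against 0.939 and 1.56 CPM (0.90 ± 0.27, adjusted p = 0.0107), and the death receptor gene Fas, at 4.45 and 5.41 against 2.44 and 2.37 CPM (0.80 ± 0.25, adjusted p = 0.0174). Each ended in 2 or 3 cases with a library left out (highest adjusted p = 0.131, 0.282 and 0.166). The p53 regulator Mdm2 (-0.47 ± 0.22) and the cell death gene Bax (-0.03 ± 0.21) did not pass.

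Of 9 tested interferon and cytokine genes 2 were higher (22.2%) and 1 was lower (11.1%), against 7.49% and 4.07% over all tested genes, and DESeq2 called 1 higher and 0 lower. The chemokine gene Cxcl16 was at 43.1 and 41.4 CPM in AmeloD and 25.5 and 19.6 CPM in Control (0.89 ± 0.16, adjusted p = 9.42e-07) and Ccl20 at 8.89 and 3.93 against 3.44 and 3.12 CPM (0.71 ± 0.24, adjusted p = 0.029). Ccl20 was high in the AmeloD pCMV6 library alone, and without it had 0.21 (adjusted p = 0.782). With TMM scaling Ccl20 had 0.65 (adjusted p = 0.0661). Usp18, an interferon-induced gene, was lower (-0.74 ± 0.26, adjusted p = 0.0447) and ended in 3 cases (highest adjusted p = 0.622). Of 15 tested cholesterol synthesis genes 0 passed with limma, edgeR or DESeq2 after adjustment (3 at an unadjusted p under 0.05 with limma), while 11.6% of all tested genes passed with limma. The most abundant, Fdps, had 0.27 ± 0.18, adjusted p = 0.387.

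Markers of other cell types were low or absent, apart from Prl8a7 in Control. Of 13 leukocyte markers 8 had no read in the 4 libraries and 1 was tested, the lysosomal gene Cd68, at 3.6 and 2.89 CPM in AmeloD and 0.814 and 0.948 CPM in Control (1.17 ± 0.27, adjusted p = 0.000411). DESeq2 did not call Cd68 (adjusted p = 0.272). The summed level of the list was 4.07 and 3.26 CPM in AmeloD and 0.939 and 1.35 CPM in Control. Of 11 endothelial markers 1 was tested, Egfl7 (-0.38 ± 0.26, adjusted p = 0.394), and of 11 odontoblast and bone markers Spp1 (0.49 ± 0.27, adjusted p = 0.25). Among 17 markers of muscle, nerve and trophoblast, Prl8a7 alone was tested, a gene of the placental prolactin family (Prl8a7, ENSRNOG00000016933, chromosome 17, 37558883 to 37564718). Prl8a7 had 0 reads in both AmeloD libraries and 11.8 and 11.3 CPM in Control. The 0 reads allow up to 0.284 CPM, so it was at least 39.8-fold lower in AmeloD. Reads shared with its many near relatives cannot be told apart. Ocm, encoding the calcium-binding protein oncomodulin and chosen after its values were seen, was similar, at 0.0946 and 0.223 CPM in AmeloD and 9.07 and 8.53 CPM in Control (-3.08 ± 0.26, adjusted p = 1.76e-28).

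Some abundant genes carried large differences in CPM with small ratios. Among called genes averaging 100 CPM or more over the 4 libraries, with an established symbol, the largest falls in CPM besides Lgals1 were those of Prickle4, Higd1a, Rpl37a-ps1 and Serf2. Higd1a, a mitochondrial hypoxia-inducible gene, was at 269 and 381 CPM in AmeloD and 596 and 574 CPM in Control (-0.87 ± 0.13, adjusted p = 1.22e-09). Prickle4, of a family known for planar cell polarity, was at 1184 and 1464 CPM in AmeloD and 2015 and 1714 CPM in Control (-0.50 ± 0.13, adjusted p = 0.00228). The ribosomal pseudogene Rpl37a-ps1, which may share reads with its parent, was at 378 and 456 against 673 and 679 CPM (-0.70 ± 0.13), and Serf2 at 342 and 387 against 473 and 507 CPM (-0.43 ± 0.13). The Control libraries lay above the AmeloD ones in all 4 genes, and 803 of the 807 called genes did not overlap either. Prickle4 ended without either Control library (highest adjusted p = 0.314) and Serf2 in 3 cases (0.353). Tsc22d1, a transcriptional regulator gene named for its induction by TGF-beta, was another of the 12 largest falls, at 18.7 and 16.5 CPM in AmeloD and 52.3 and 40.8 CPM in Control (-1.34 ± 0.16, adjusted p = 5.27e-15).

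The same genotype difference was measured in the 4 TGF libraries, which are separate libraries with Controls of their own. There 353 of the 6986 genes passed (5.05%). Of the 807 genes called in N libraries 758 (93.9%) had the same sign in TGF libraries, against 64.1% of the other genes. Called in both were 255 genes, 31.6% of the N calls and 72.2% of the TGF calls, and 0 were called in opposite directions. Of the larger differences several had similar values in both conditions: in TGF libraries Slpi had 2.84, Krtdap 2.52, Sprr1a 2.29, Nts 3.59, Fhl1 3.10, Mt1 -2.55 and Igfbp5 -2.84. Cnfn had 2.20 against 2.80 in N libraries, Ldha -0.99 against -1.36, Slurp1 1.10 against 1.82, Ccnd2 1.40 against 2.04 and Prl8a7 -5.60 against -3.65.

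In a test of the difference between both conditions, over all 8 libraries with 3 residual degrees of freedom, 1 of 6986 genes passed (0.0143%), which was Prl8a7. At an unadjusted p under 0.05 there were 300 genes by limma, 352 by edgeR and 123 by DESeq2, and after adjustment edgeR and DESeq2 called 0. Spink5 (1.71 in N, 0.02 in TGF libraries) and Jund (0.51 and -0.01) passed in N libraries and did not in TGF libraries, and in neither did the test of the difference pass (adjusted p = 0.939 and 0.999). The TGF value of Spink5 averages opposite pairs, 1.23 with pCMV6 and -1.19 with pCMV6.ODAM.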

How the data were processed

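RNA of 8 SF2 libraries was measured, and the 4 N libraries are compared here. Per the labels' protocols, total RNA was made into QIAseq UPX 3′ libraries, sequenced on a DNBSEQ-G400, aligned to mRatBN7.2 (STAR) and assigned to genes (featureCounts). The submitters' processing notes list STAR 2.7.10a, featureCounts 2.0.1, Trim Galore 0.6.7, Trimmomatic 0.39 and cutadapt 3.7. The sources used here do not say whether molecular identifiers were used, which strand setting applied or how shared reads were handled. CPM per gene is what the authors deposited. All deposited CPM values (100%) were whole multiples of 1 read within 0.01, which gave library totals and reads. Of the table, 4319 rows had no symbol, and reads outside the table's rows are not analysed here.

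Genes that reached 1 CPM in 2 or more of the 4 N libraries were tested with limma 3.58.1 (R 4.3.3) on log2(CPM + 1), with the eBayes trend, plasmid and genotype as terms, two-sided, Benjamini-Hochberg adjustment and a threshold of 0.05. The pairing by plasmid label comes from the titles. edgeR 4.0.16 and DESeq2 1.42.0 on the recovered reads, other scalings, pseudocounts and filters, and leaving out each library were the alternatives. The script was tested on simulated data. Tables and figures were made with Python 3.11.15, pandas 2.3.3 and matplotlib 3.10.9.

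Named genes were the 12 largest rises and 12 largest falls among called genes averaging 10 CPM or more whose pairs had the same sign, the 5 largest CPM differences each way at 100 CPM or more, up to 3 called members per list (or the most abundant tested one), Ascl5, Odam, genes called in the interaction, and genes read in 1 genotype alone; genes with no symbol or with a provisional one (starting with LOC, RGD, AABR, AC or ENSRNOG) were skipped. Other list members are given by their values, and some are not reported here. There were 31 lists with 688 symbols, of which 671 were matched, 6 by another symbol. The comparison, the lists and the rule were chosen with earlier results of these data known. Promoters came from RefSeq (GRCr8) and were matched by symbol. A count of 0 was taken to allow 3 reads, and intervals cover counting error only.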

Additional observations from a re-analysis of the deposited data

Results flagged for a closer look

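Prl8a7, a gene of the placental prolactin family, stood out because its difference between AmeloD and Control was not the same in N and in TGF libraries: the difference of the 2 differences was -1.95 ± 0.35 on the log2(CPM + 1) scale (limma, adjusted p = 0.0218). AmeloD had 0 reads in both N libraries and 0 and 3 reads in the TGF libraries (pCMV6 first). Control had 189 and 167 reads with N and 847 and 895 with TGF. The genotype difference was -3.65 in N and -5.60 in TGF libraries. edgeR and DESeq2 on the recovered reads, and limma with a pseudocount of 0.5, did not call it.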

How the results depend on the processing

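The 4 libraries leave 1 residual degree of freedom. The p values and standard errors rest on a spread shared by genes of like level, so they do not show how a gene varies between cultures. Low genes are limited by depth: 1 read was worth 0.0626 to 0.0946 CPM. No paired analysis by replicate number was possible because the labels give none; the pairing is by plasmid.

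The 523 higher genes became 334 with a filter of 5 CPM, 328 with all 8 libraries in the fit and 101 with DESeq2. The 284 lower genes became 153 with all 8 libraries and 58 with DESeq2. With 1 library left out, which also drops the plasmid term, the counts ranged from 219 to 424 higher and from 91 to 231 lower. TMM scaling, equal medians, rescaling to the table sum, other pseudocounts, no filter, no plasmid term, a robust prior and edgeR kept both counts within 1.5 times. The 1 gene called in the interaction became 0 with a pseudocount of 0.5, with edgeR and with DESeq2, and ranged from 0 to 6 with 1 library left out.

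Of 87 called named genes 86 kept their direction in every alternative run. With 1 library left out Gsta4 ranged from -0.51, without the AmeloD pCMV6.ODAM library, to 4.25. The fit with all 8 libraries ended 14 of the named calls, the fit without a plasmid term 7 and the fit without a filter on low values 5. DESeq2 ended 38 of the named calls, TMM scaling 3 and edgeR 1, and leaving out a library ended 37 in at least 1 case.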

Other observations

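Some genes stood apart in 1 library rather than by genotype, and were chosen after their values were seen. The chromosome 6 copy of Calm2, which encodes calmodulin, was at 37.9 CPM in AmeloD pCMV6, 116 in AmeloD pCMV6.ODAM, and 51.0 and 50.9 in Control, and did not pass (0.38, adjusted p = 0.0649). Gsta4 was high in the same library. Cxcl6, a neutrophil chemokine gene, was at 83.5, 34.7, 69.4 and 68.3 CPM in the same order. Gnl3, encoding the nucleolar protein nucleostemin, was at 45.9 CPM in Control pCMV6 and at 16.3, 18.9 and 22.6 CPM in the other libraries. Across all tested genes the SD of the log2 difference was 0.365 between the AmeloD libraries, 0.329 between the Control libraries, and 0.498 and 0.493 between genotypes in the pCMV6 and pCMV6.ODAM pairs.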
